A study of Saccharomyces cerevisiae with 6 samples.

Results

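The genes of amino acid biosynthesis that are known targets of Gcn4 were examined in budding yeast with and without the histone H3 lysine 36 methyltransferase Set2. They were taken by name from the deposited count table, as 47 of its 18646 transcriptional units, and comprised GCN4 itself and 46 enzyme genes of the arginine, histidine, lysine, branched-chain, aromatic, threonine, asparagine, and glutamate pathways. Of the 47 genes, 46 had reads, and the same 46 were among the 5317 units with enough reads to test. RNA-seq was performed on 3 wild-type (WT) and 3 Δset2 samples of W303, a laboratory strain, each from a separate colony grown in YPDA, a rich medium, to an optical density of 0.6. The labels describe the mutant as a SET2 knockout made with a His3 marker (set2::His3), whereas the methods of the study name a KanMX cassette, so loss of SET2 and whichever marker was used cannot be told apart. Strains of the W303 background usually carry mutations in HIS3, LEU2, and TRP1. The labels give no difference between the groups in LEU2 or TRP1, but the His3 marker they name would be in Δset2 only. Whether HIS3 function differed between the groups was not tested.

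Gcn4 is a basic leucine zipper activator that binds the palindrome-like sequence TGACTCA upstream of genes for most amino acid pathways. Its mRNA carries short upstream open reading frames, so that the protein is made mainly when amino acids run short and the kinase Gcn2 phosphorylates eIF2. The level of GCN4 mRNA is therefore not a measure of the protein. Individual pathways have their own regulators as well, such as Arg80, Arg81, Arg82, and Mcm1 for arginine, Leu3 for leucine, and Lys14 for lysine.

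The sequence TGACTCA on either strand (TGAGTCA on the other) was found in the 250 bases before the annotated unit start of 21 of the 47 genes (44.7%), compared with 152 of 6663 protein-coding units (2.28%). With any central base (TGANTCA), 23 of the 47 genes (48.9%) and 389 of all protein-coding units (5.84%) had a match. With any central base, 7 of the 9 branched-chain genes and 4 of the 6 histidine genes had a match in this window, and no match was found before GCN4 or before any of the 3 nitrogen assimilation genes. The following matches are shown because the genes behind them behaved differently in Δset2: ARG8, ARG7, and HIS5 were lower, ILV6 was higher, and HIS4 and ASN2 did not pass the test. Each is written on the strand of its gene, with the motif in capitals and 11 flanking bases on each side, and the sequence is from RefSeq (R64 assembly, whose coordinates are those of sacCer3).
ARG8 (chrXV:58568-58596, plus strand): agctcgctatgTGACTCActtaaagtaca
ARG7 (chrXIII:396514-396542, minus strand): gacaggtaggaTGACTCActgcgtaattc
HIS5 (chrIX:142715-142743, plus strand): cttggatctgtTGACTCActtcaattgat
ILV6 (chrIII:105681-105709, minus strand): caccgttatcgTGACTCActttctttcgc
HIS4 (chrIII:68515-68543, minus strand): cccatgcacagTGACTCAcgtttttttat
ASN2 (chrVII:739736-739764, plus strand): tttcttagcatTGACTCAtggcaagattt
The same 7 letters stood upstream of genes whose RNA was lower, higher, or not detectably different. These genes were picked by their results, so this mix does not describe genes with a match as a set. Among the 46 tested genes, the 23 with a TGANTCA match had a median log2 fold change of -0.14, and the 23 without one had -0.098. In each set 3 genes were lower and 1 was higher in Δset2 by the test described next. In the 250 bases before the coding start, the medians were closer, at -0.12 for the 20 genes with a match and -0.11 for the 26 without. ARG3, CPA1, and GLT1, which were lower, and BAT2, which was higher, had no match in either window. A match in either window does not show binding.

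As a check of the labels, SET2 (YJL168C) itself gave 435, 298, and 459 reads in WT 1, 2, and 3, compared with 20, 9, and 32 in Δset2 1, 2, and 3 (log2 fold change -4.27). Total counts ranged from 5135226 to 22536840 per library, and the smallest and largest libraries were both Δset2. The 47 genes took between 1.98% and 2.34% of the counts of each library. WT 2 stood apart from the other WT samples. The chi-square statistic of its counts per degree of freedom was 62.6 against either of them, and that between WT 1 and WT 3 was 14.1. WT 2 was the lowest WT sample in 30 of the 46 genes. Several results whose call or size turned on WT 2 are given with and without it. Within Δset2 the same statistic was 32.0 and 32.9 for Δset2 2 against Δset2 1 and 3, and 18.8 between Δset2 1 and 3. Δset2 2 was the highest Δset2 sample in 24 of the 46 genes. Levels are TMM-normalized CPM (reads scaled to a common library size), and a difference is the log2 fold change of Δset2 over WT from edgeR's quasi-likelihood test, with its standard error (SE) and P value adjusted by the Benjamini-Hochberg method over the 5317 units. "Rose" and "fell" are used for an adjusted P below 0.05, and a gene was called when its fold change was also above 1.5, the thresholds of the study. P values measure the spread between 3 colonies per genotype. Strand was ignored in the deposited counts, so a level does not separate sense from antisense reads.

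Loss of Set2 was accompanied by lower RNA from part of the arginine pathway, while most of the other genes stayed within the spread of the samples. ARG3, ARG8, and CPA1 of arginine synthesis were called lower, and ILV6 and BAT2 of branched-chain synthesis were called higher, although both lost the call without WT 2, Δset2 2, or Δset2 3. ARG7, HIS5, and GLT1 fell by less than the fold threshold. Of the 46 genes tested, 5 were called (10.9%), beside a background of 3.57% of all tested units (190 of 5317). The 3 called lower compare with 0.733% of all units called lower, and the 2 called higher with 2.84% called higher. At any fold, 6 genes fell, beside 1.77% of all units, and 2 rose (4.35%), a share close to the 4.48% over all units. An unadjusted P below 0.05 was found for 15 of the 46 genes and for 1253 of all 5317 tested units. Later counts at that unadjusted P are to be read beside the same share.

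The direction of the smaller differences was uneven. The log2 fold change was below 0 in 35 of the 46 genes and above 0 in 11, with a median of -0.11, and the median over all tested units was -0.0040. The median of the 46 genes was -0.18 without WT 2 and -0.16 without Δset2 2. In 15 genes (32.6%) all 3 Δset2 values lay below all 3 WT values, which held for 13.8% of all tested units. Without WT 2 this count was 22, where fewer samples also make overlap less likely. The share of all units was not computed for that setting, so the 22 cannot be set beside the 13.8%. In 5 genes (10.9%) all 3 Δset2 values lay above the WT values, which held for 14.1% of all units. Leaving out the arginine genes, the median of the other 40 tested genes was -0.09, and 11 lay below WT without overlap. Taken sample by sample, the median of the 46 genes relative to the WT mean (log2) was 0.02, -0.10, and 0.06 in WT 1, 2, and 3 and -0.22, -0.03, and -0.11 in Δset2 1, 2, and 3. These medians overlapped between the genotypes, since Δset2 2 lay above WT 2.

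**Figure D1:**
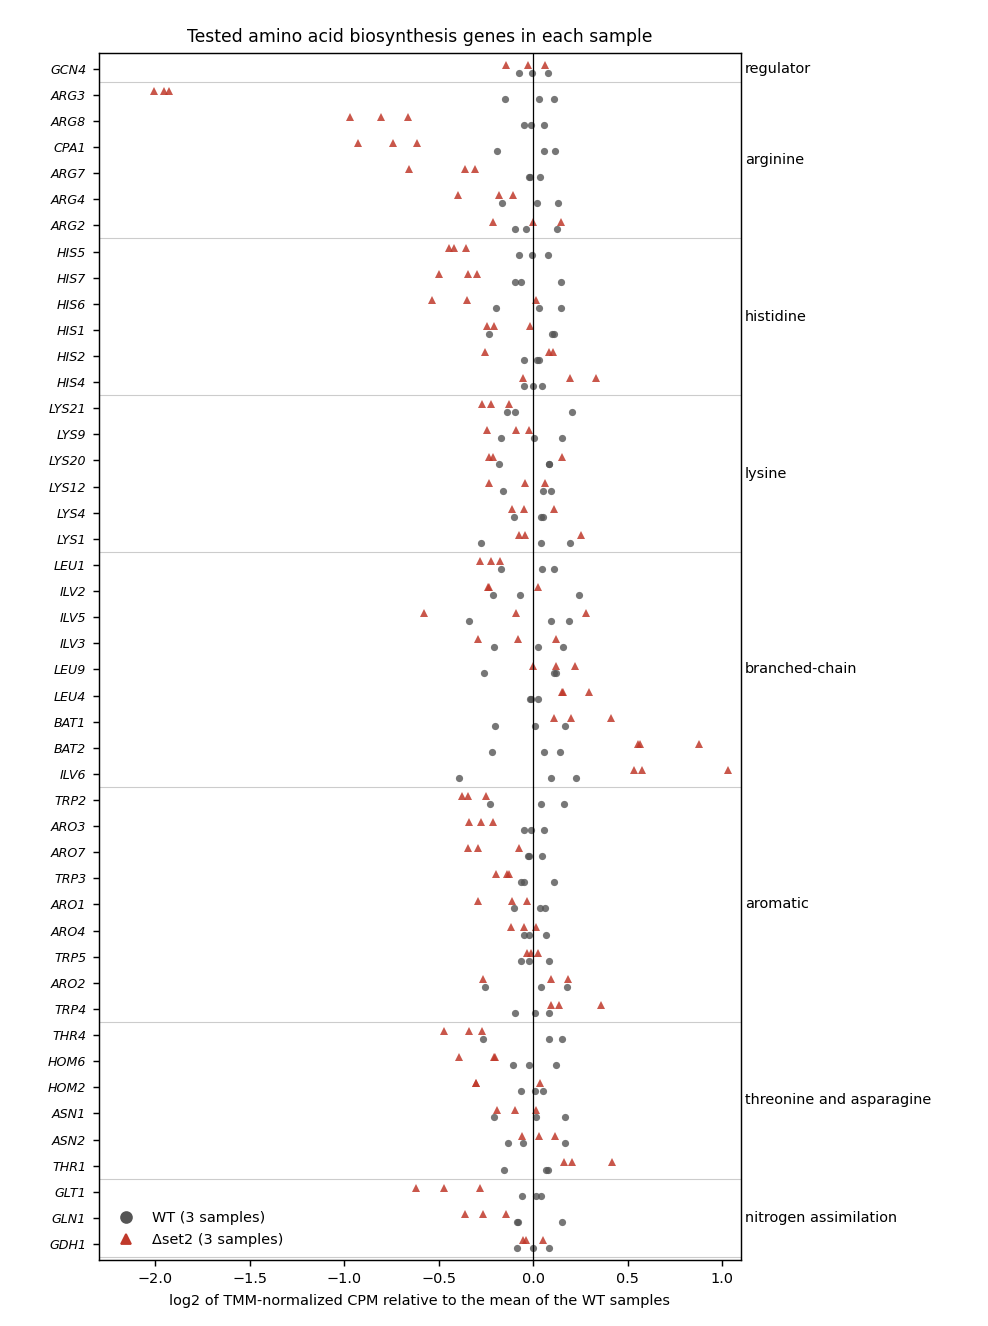
Each tested gene in each sample, as log2 of TMM-normalized CPM relative to the mean of the 3 WT samples, with WT samples as gray circles and Δset2 samples as red triangles, grouped by pathway and ordered by log2 fold change within each group. The Δset2 values of ARG3, ARG8, CPA1, and ARG7 lie to the left of all WT values, those of BAT2 and ILV6 lie to the right, and the lysine genes overlap throughout.

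GCN4 (YEL009C, chromosome V, 138829 to 140365, minus strand) was abundant and did not differ between the genotypes beyond their spread. Its level was 1139, 1209, and 1088 CPM in WT 1, 2, and 3 and 1195, 1123, and 1035 CPM in Δset2 1, 2, and 3. The samples of both genotypes were interleaved, with the lowest value and the second highest both in Δset2. The log2 fold change was -0.04 (SE 0.10, adjusted P = 0.88 from edgeR). A two-sided exact permutation test of the CPM over samples gave P = 0.7, where 3 against 3 samples allow no P below 0.1.

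In the arginine group all 6 tested genes had a log2 fold change below 0, with a median of -0.59, and 4 of the 6 fell. Arginine is made from glutamate through acetylated intermediates to ornithine in the mitochondrion, then through citrulline and argininosuccinate in the cytosol. ARG3 encodes ornithine carbamoyltransferase, which joins ornithine and carbamoyl phosphate to citrulline. It had 59.8, 49.8, and 56.5 CPM in the WT samples and 14.5, 13.8, and 14.3 CPM in the Δset2 samples. The Δset2 samples were nearly equal to each other and all far below the lowest WT sample, at 25.7% of the WT level. This was the largest change of the 46 genes (log2 fold change -1.96, SE 0.11, adjusted P = 8.6e-06 from edgeR).

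ARG8, the acetylornithine aminotransferase, had 74.3, 76.4, and 80.1 CPM in WT and 44.1, 39.3, and 48.7 CPM in Δset2. No Δset2 sample reached the lowest WT sample, and the log2 fold change was -0.80 (SE 0.10, adjusted P = 0.0022 from edgeR). CPA1 (YOR303W, chromosome XV, 882872 to 884134, plus strand) encodes the small subunit of the arginine-specific carbamoyl phosphate synthetase, which supplies the other substrate of the ARG3 enzyme. It had 246, 198, and 236 CPM in WT and 136, 148, and 119 CPM in Δset2. The groups were again apart, with WT 2 the lowest of the WT samples (log2 fold change -0.76, SE 0.12, adjusted P = 0.0052 from edgeR). ARG3, ARG8, and CPA1 kept their calls with each sample left out in turn.

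ARG7, the mitochondrial ornithine acetyltransferase, had 110, 111, and 115 CPM in WT and 87.1, 70.9, and 90.2 CPM in Δset2. Its WT values were close together and above all Δset2 values (log2 fold change -0.43, SE 0.11, adjusted P = 0.044 from edgeR), but the adjusted P was above 0.05 when any sample other than WT 2 was left out, reaching 0.16 without WT 3, and was 0.063 with upper-quartile normalization. ARG7 was counted on 1083 of its 1529 bases. The other measured genes did not pass the test. ARG4, argininosuccinate lyase at the last step, had a log2 fold change of -0.22 (adjusted P = 0.27 from edgeR). ARG2, the acetylglutamate synthase at the first step, had 23.9, 22.9, and 26.7 CPM in WT and 21.2, 27.1, and 24.5 CPM in Δset2, so that its samples overlapped fully (log2 fold change -0.03).

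ARG1, argininosuccinate synthetase, could not be assessed. It had 0 reads in all 6 samples. The authors dropped reads that overlapped more than 1 unit on either strand, and only 39 of the 1457 bases of the ARG1 unit lie outside other units, so the 0 says nothing of its RNA. Across the 47 genes, 19 had no overlap with another unit, 39 had at least 80% of their bases free, and ARG1 and LYS1 had less than 50%.

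The enzyme between the first step and ARG8 was not in the gene list but belongs to the same pathway. ARG5_6 (YER069W, the ARG5,6 gene for acetylglutamate kinase and reductase) had 236, 225, and 256 CPM in WT and 116, 84.3, and 114 CPM in Δset2. All Δset2 values were below the WT values, and the gene was called lower (log2 fold change -1.18, SE 0.13, adjusted P = 0.00084 from edgeR).

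**Figure D2:**
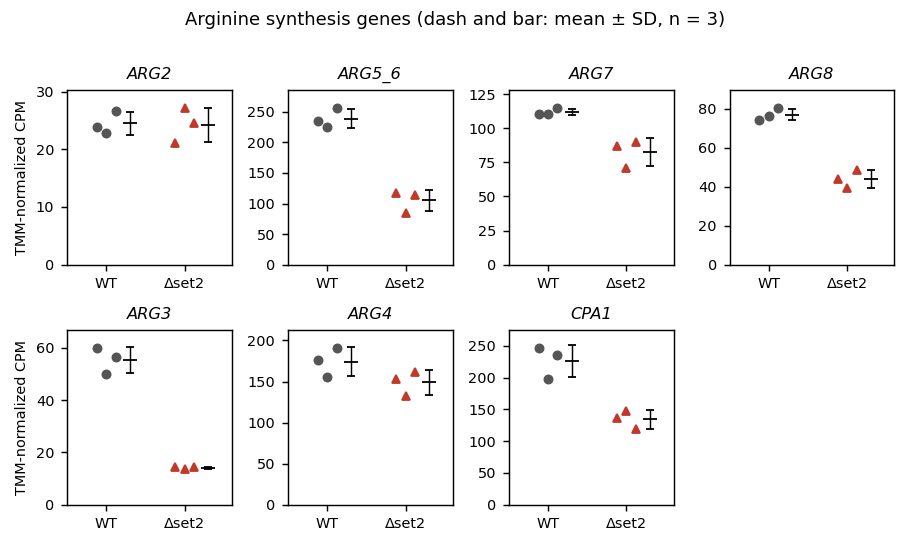
TMM-normalized CPM of 7 arginine synthesis genes in each sample, WT as gray circles and Δset2 as red triangles, with the mean and SD of each group (n = 3) as a dash and bar beside the points, on axes that start at 0. ARG3 and ARG5_6 show the widest gaps between genotypes, and ARG2 and ARG4 overlap.

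The histidine group had a median log2 fold change of -0.21, and 1 of its 6 genes fell. HIS5, histidinol-phosphate aminotransferase, had 65.5, 68.6, and 73.0 CPM in WT and 53.9, 51.6, and 50.6 CPM in Δset2. The groups did not overlap (log2 fold change -0.41, SE 0.09, adjusted P = 0.032 from edgeR), and the adjusted P was above 0.05 when any sample other than WT 2 was left out, reaching 0.15 without Δset2 3. HIS7, imidazole glycerol phosphate synthase, was also lower in all 3 Δset2 samples without passing the test (log2 fold change -0.37, adjusted P = 0.079, and 0.036 without WT 2, from edgeR).

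HIS4, the multifunctional enzyme whose promoter is a classical Gcn4 target, had 240, 257, and 248 CPM in WT and 312, 239, and 284 CPM in Δset2. Its Δset2 samples spanned the WT values (log2 fold change 0.17, SE 0.11). HIS6, the isomerase of the pathway, was the lowest of the 46 genes per kilobase, with 7.3, 5.8, and 6.8 CPM in WT and 6.7, 4.6, and 5.2 CPM in Δset2. These values overlapped (log2 fold change -0.26, SE 0.18). HIS1, the first enzyme, and HIS2, the phosphatase, had log2 fold changes of -0.16 and -0.02. HIS3 is the marker gene named in the labels, and it had 0 reads in every sample and none of its bases lie outside other units, so the marker could not be checked from its reads.

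None of the 6 lysine genes passed the edgeR test, none had an unadjusted P below 0.05, and none had groups apart. Lysine is made in yeast through homocitrate and aminoadipate. LYS21, a homocitrate synthase, had the largest negative value of the group, with 91.1, 88.6, and 112 CPM in WT and 80.7, 89.1, and 83.4 CPM in Δset2 (log2 fold change -0.21, SE 0.11). LYS1, saccharopine dehydrogenase at the last step, had the only positive value, with 10.6, 9.5, and 7.6 CPM in WT and 11, 8.8, and 9.0 CPM in Δset2 (log2 fold change 0.06, SE 0.17). Both overlapped between genotypes, and LYS1 was counted on only 285 of its 1369 bases. LYS20, the other homocitrate synthase, and LYS4, LYS12, and LYS9, which act between these synthases and LYS1, ranged from -0.12 to -0.01. The group median was -0.08. Leaving out 1 sample moved that median to -0.043 (WT 1), -0.12 (WT 2), -0.045 (Δset2 1), or -0.15 (Δset2 2).

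The branched-chain group was the only group of genes with a positive median, at 0.12, but the median was -0.0018 without WT 2, 0.059 without Δset2 2, and 0.18 without WT 3. Valine, isoleucine, and leucine share their first steps, and acetolactate synthase, at the head of them, consists of the catalytic subunit ILV2 and the regulatory subunit ILV6. ILV6 (YCL009C) had 231, 150, and 211 CPM in WT and 286, 404, and 294 CPM in Δset2. The groups did not overlap, but WT 2 was the lowest WT sample and Δset2 2 by far the highest Δset2 sample (log2 fold change 0.73, SE 0.18, adjusted P = 0.040 from edgeR). ILV6 lost its call when any sample other than WT 1 was left out, and its log2 fold change was 0.57 without WT 2. ILV6 was counted on 705 of its 1081 bases. ILV2 had a log2 fold change of -0.14 (SE 0.14).

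BAT2, the cytosolic branched-chain aminotransferase, had 97.6, 80.5, and 103 CPM in WT and 138, 173, and 139 CPM in Δset2. All Δset2 samples were above all WT samples (log2 fold change 0.67, SE 0.13, adjusted P = 0.016 from edgeR). It fell short of the fold threshold without WT 2 (log2 fold change 0.57) or Δset2 2 (0.56), and its adjusted P was 0.063 without Δset2 3. BAT1, the mitochondrial aminotransferase, had a log2 fold change of 0.25 (SE 0.13, adjusted P = 0.28 from edgeR), with Δset2 3 below WT 3.

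The leucine branch did not pass the test in either direction. LEU4, the main isopropylmalate synthase, had 986, 984, and 1013 CPM in WT and 1109, 1105, and 1219 CPM in Δset2, and LEU1, the isomerase that follows it, had 1732, 2016, and 2110 CPM in WT and 1604, 1729, and 1673 CPM in Δset2. LEU4 was higher and LEU1 lower in every Δset2 sample, by small margins (log2 fold change 0.20 with SE 0.10, and -0.23 with SE 0.11). LEU9, the second isopropylmalate synthase, had a log2 fold change of 0.12, and ILV3, the dihydroxyacid dehydratase, had -0.08. ILV5, acetohydroxyacid reductoisomerase, varied widely within each genotype, with 1868, 1297, and 1752 CPM in WT and 1097, 1989, and 1538 CPM in Δset2. The highest and lowest of its 6 values were both in Δset2 (log2 fold change -0.09, SE 0.21).

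**Figure D3:**
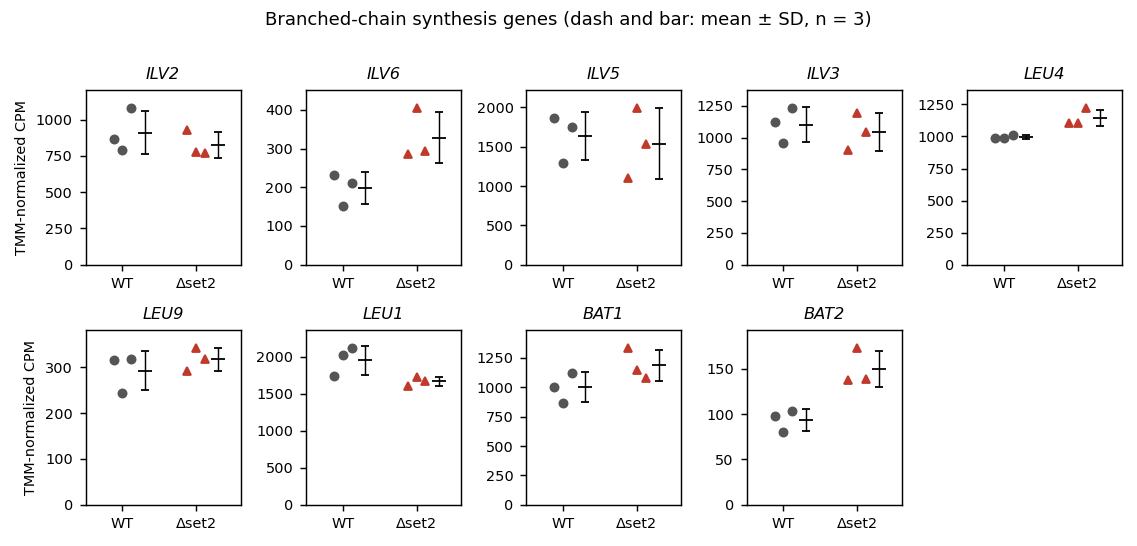
TMM-normalized CPM of the 9 branched-chain synthesis genes in each sample, WT as gray circles and Δset2 as red triangles, with the mean and SD of each group (n = 3) as a dash and bar beside the points, on axes that start at 0. Δset2 values lie above all WT values for ILV6, BAT2, and LEU4, and the wide overlap of ILV5 includes the highest and lowest sample in the same genotype.

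In the aromatic group none of the 9 genes passed the edgeR test (2 had an unadjusted P below 0.05), and the median log2 fold change was -0.14, or -0.077 without Δset2 3. TRP2, a subunit of anthranilate synthase at the entry to tryptophan, had 185, 153, and 201 CPM in WT and 138, 141, and 151 CPM in Δset2. The groups were apart, with WT 2 just above the highest Δset2 sample (log2 fold change -0.32, SE 0.11, adjusted P = 0.12 from edgeR, and 0.018 without WT 2). TRP4, anthranilate phosphoribosyltransferase at the next step, had 109, 117, and 123 CPM in WT and 124, 149, and 128 CPM in Δset2. It was slightly higher in each Δset2 sample (log2 fold change 0.20, SE 0.10). TRP3 (log2 fold change -0.15), ARO3 (-0.28), an initial synthase of the shikimate pathway, and ARO7 (-0.22), chorismate mutase, also lay below WT without overlap. ARO1, the pentafunctional enzyme, ARO2, chorismate synthase, ARO4, the other initial synthase, and TRP5, tryptophan synthase, ranged from -0.14 to 0.01.

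The threonine and asparagine genes gave a median of -0.14 (-0.085 without Δset2 1 and -0.22 without Δset2 2), with none past the edgeR test and 3 at an unadjusted P below 0.05. DESeq2 likewise gave no lysine, aromatic, threonine, or asparagine gene an adjusted P below 0.05. THR4, threonine synthase, had 597, 470, and 627 CPM in WT and 447, 468, and 408 CPM in Δset2. WT 2 was close to the highest Δset2 sample, and the other WT samples were well above it (log2 fold change -0.36, SE 0.12, adjusted P = 0.12 from edgeR, and 0.016 without WT 2). THR1, the homoserine kinase that makes the substrate of THR4, had 369, 313, and 366 CPM in WT and 391, 467, and 403 CPM in Δset2. Its values lay the other way, higher in every Δset2 sample (log2 fold change 0.27, SE 0.11, adjusted P = 0.18 from edgeR). HOM6, homoserine dehydrogenase, was lower in every Δset2 sample (log2 fold change -0.26), while HOM2, aspartate semialdehyde dehydrogenase, and the asparagine synthetases ASN1 and ASN2 had -0.18, -0.09, and 0.03 with overlapping samples.

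Nitrogen enters these pathways through glutamate and glutamine. GLT1, glutamate synthase, fell, with 1651, 1772, and 1737 CPM in WT and 1238, 1412, and 1117 CPM in Δset2. All WT samples were above all Δset2 samples (log2 fold change -0.45, SE 0.12, adjusted P = 0.047 from edgeR), and the adjusted P was above 0.05 without WT 1, WT 3, Δset2 1, or Δset2 3, reaching 0.20 without the last, and was 0.051 when the most abundant 1% of units were removed. GLN1, glutamine synthetase, was lower in each Δset2 sample without passing the test (log2 fold change -0.26, adjusted P = 0.18 from edgeR). GDH1, the NADP-dependent glutamate dehydrogenase, had 817, 770, and 868 CPM in WT and 789, 796, and 847 CPM in Δset2, with full overlap (log2 fold change -0.01, SE 0.10).

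Levels were compared between genes per kilobase of the bases on which a unit could be counted. ILV5 was the highest in WT, at 1184 ± 218 CPM per kb (SD, n = 3), followed by LEU1 (774 ± 77.9), BAT1 (753 ± 95.5), and GCN4 (745 ± 39.5). The last 3 did not differ beyond their spread. The arginine genes lay in the lower part of the order, from CPA1 at 179 ± 19.9 CPM per kb to ARG2 at 13.0 ± 1.0. ARG2 and HIS6 (12.9 ± 1.5) closed the order and did not differ beyond their spread. In Δset2, ARG3 went from 55.6 ± 5.1 to 14.2 ± 0.4 CPM per kb, beside the level of ARG2 (12.9 ± 1.6). BAT2 went from 77.7 ± 9.8 to 124 ± 16.4 CPM per kb.

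**Figure D4:**
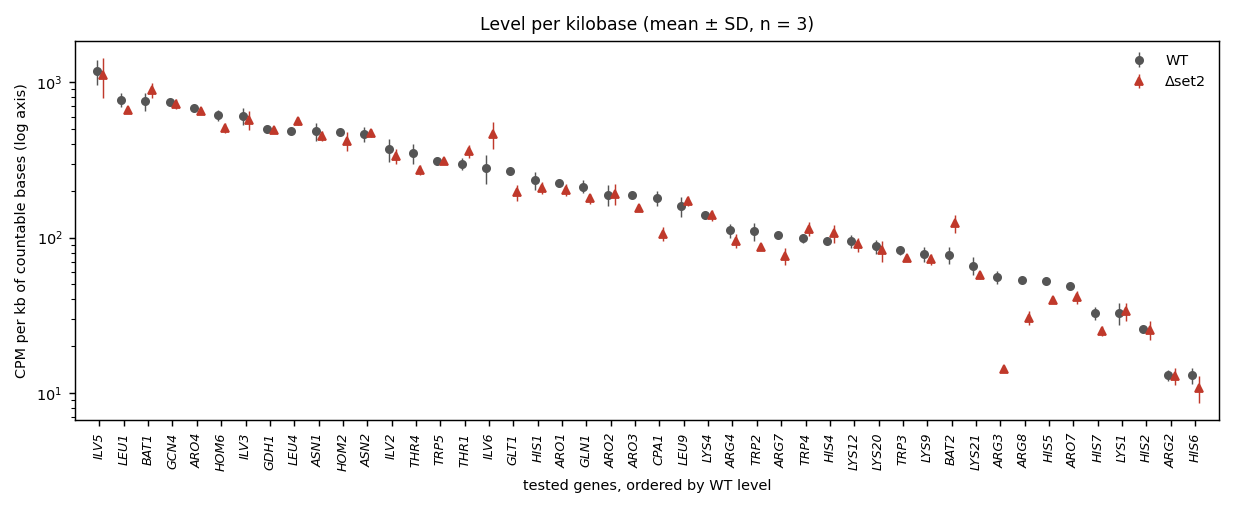
Level of the 46 tested genes as TMM-normalized CPM per kilobase of countable bases, on a log axis and ordered by WT level, as the mean and SD (n = 3) of WT (gray circles) and Δset2 (red triangles). The levels span from 12.9 for HIS6 to 1184 for ILV5 in WT, and ARG3 shows the widest separation between the genotypes.

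Other genes that act on the same amino acids were examined as lists. For comparison, 2.84% of all tested units were called higher and 0.733% lower, and 14.1% lay above and 13.8% below WT without overlap. Of 19 further genes of the same pathways, 17 were tested and 1 was called (ARG5_6, lower), with a median log2 fold change of -0.08. LYS2, aminoadipate reductase of lysine synthesis, fell (log2 fold change -0.42, adjusted P = 0.047 from edgeR), and ARO9, an aromatic aminotransferase used mainly in catabolism, rose (0.57, adjusted P = 0.048 from edgeR). ARO9 was counted on 1096 of its 1929 bases and had 0.44 without WT 2. In this list, 4 genes lay below and 2 above WT without overlap. TRP1, phosphoribosylanthranilate isomerase of tryptophan synthesis, passed only without WT 2 (log2 fold change 0.55 and adjusted P = 0.13 with it, 0.68 and 0.043 without, from edgeR), and was named after its values were seen. HIS3 had no reads and GDH3 had too few to test.

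None of the 16 genes for the translational control and turnover of Gcn4 passed the edgeR test, and none passed with DESeq2. An unadjusted P below 0.05 (edgeR) was found for 5 of them, beside 1253 of all 5317 tested units. In this list 6 genes lay below and 1 above WT without overlap, with a median of -0.13. YIH1, an inhibitor of Gcn2 activation, had the largest positive value (log2 fold change 0.67, adjusted P = 0.097 from edgeR), from 3.2, 3.0, and 4.3 CPM in WT and 5.6, 7.4, and 5.0 CPM in Δset2. YIH1 was counted on only 231 of its 945 bases, with as few as 31 reads in a sample. GCD7, a subunit of the exchange factor eIF2B, had the largest negative value (-0.35, adjusted P = 0.083 from edgeR). Without WT 2, 3 of the 16 genes fell, namely GCD7 (adjusted P = 0.035 from edgeR), GCD1, another eIF2B subunit (0.032), and GCN20, a partner of GCN1 in Gcn2 activation (0.033). That fit also called more units in all, 373 beside 190 with all samples, in either direction. GCN2 itself had a log2 fold change of -0.04.

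Among 18 pathway-specific regulators the median was -0.03, and 5 lay below and 3 above WT without overlap. ARO80, the activator of ARO9, was called higher, with 18.2, 17.5, and 16.5 CPM in WT and 30.7, 26.7, and 31.7 CPM in Δset2. Its groups were well apart (log2 fold change 0.79, SE 0.11, adjusted P = 0.0033 from edgeR). GLN3 (-0.50, adjusted P = 0.027 from edgeR), a GATA activator of nitrogen genes, LEU3 (-0.42, 0.048), and LYS14 (-0.39, 0.035) fell. The regulators of the arginine genes did not pass the test: ARG80, ARG81, ARG82, and MCM1 had log2 fold changes of 0.02, -0.20, 0.23, and 0.09.

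Uptake is the other source of amino acids in rich medium. Of 24 genes for plasma membrane permeases and the SPS sensor pathway that controls them, 3 were called higher and none lower, with a median of 0.05, and 6 lay above WT without overlap, beside 2.84% and 14.1% of all units. The called genes were PUT4, a proline permease (log2 fold change 0.89, adjusted P = 0.043 from edgeR), AGP2, a plasma membrane regulator and transporter (0.83, 0.027), and SSY1, the amino acid sensor (0.69, 0.0045). BAP2, a permease for branched-chain amino acids, rose from 696, 767, and 661 CPM in WT to 941, 947, and 926 CPM in Δset2, with the Δset2 samples close together and above WT (0.41, adjusted P = 0.043 from edgeR). The general permease GAP1 had -0.14. WT 2 was the highest WT sample for PUT4, AGP2, and BAP2. Without WT 2 they had 1.19, 1.06, and 0.46, and SSY1 had 0.63. MUP3, a low-affinity methionine permease, passed only without WT 2 (0.31 with it and 0.45 without, where adjusted P = 0.043 from edgeR). In these lists, ARG5_6, ARO80, and SSY1 kept their calls with each sample left out in turn. The other genes that passed did so with all samples but not without WT 1, WT 3, Δset2 1, or Δset2 3, and their highest adjusted P values then ran from 0.12 for GLN3 to 0.20 for LEU3 (edgeR).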

How the data were processed

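Reads of total RNA, depleted of rRNA (200 ng per library, 76-nt single reads, a single pool), were mapped by the authors to sacCer3 with TopHat2 2.1.0. Multiply mapped and low-quality reads were removed (SAMtools 1.2), and the authors deposited read counts per transcriptional unit from summarizeOverlaps, ignoring strand and dropping reads on more than 1 unit. The FPKM values deposited by the authors were not used, nor were their fold changes and P values. All 6 count columns were mapped to samples, leaving 0 unmapped.

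Counts were fitted with edgeR 4.0.16 (limma 3.58.1, R 4.3.3) using TMM, filterByExpr, glmQLFit, and glmQLFTest over 5317 units. The common biological coefficient of variation was 0.121. SE was derived as log2 fold change over the root of F. DESeq2 1.42.0, other scalings and filters, and leaving out samples were alternatives. The fits were tested on simulated data. Total counts per library were 5135226 to 22536840, and the lowest count of a tested gene in a sample was 23.

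The genes and lists were chosen with earlier results of these data known. Values in every sample were given by rule for GCN4, genes past an adjusted P of 0.05, the extremes of each pathway and of level, and the 6 largest rises and 6 largest falls without overlap, of which only 5 rises existed. Values were also given for YIH1 and some genes of other lists. A gene of 1 of these lists is not reported here. Unit coordinates matched the R64 assembly: 5984 of 5986 RefSeq genes lay inside their unit.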

Additional observations from a re-analysis of the deposited data

How the results depend on the processing

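With 3 samples per group, leaving out 1 moved most counts. All units called ranged from 80 (without Δset2 3) to 373 (without WT 2), beside 190 with all samples. Genes of the list called higher ranged from 0 to 2, those that rose at any fold from 0 to 2, and those that fell at any fold from 3 to 9. The 9 were reached without WT 2, where HIS7, TRP2, and THR4 joined the 6. The 3 called lower stayed 3 in each case. The replicate numbers showed no pairing of the samples. Deviations from the group means correlated at r = -0.32, -0.36, and -0.13 between same-numbered samples. Between differently numbered samples r ran from -0.11 (WT 1 with Δset2 3) to 0.33 (WT 1 with Δset2 2). Whether any of these samples shared a batch was not tested. With the replicate number as a block, 75 units were called, and in the list 2 were called lower (ARG3 and ARG8) and 0 higher, while 2 fell and 0 rose at any fold. CPA1 (log2 fold change -0.76, adjusted P = 0.051), ILV6 (0.73, 0.17), and BAT2 (0.67, 0.11) were the 3 not called there, all adjusted P values from edgeR. DESeq2, both other scalings, both other filters, testing protein-coding units alone, and removing the most abundant 1% of units each gave the same 5 called genes. Values near 0 changed sign. With upper-quartile normalization HIS2 was 0.0042, LYS4 0.0016, TRP5 0.010, and GDH1 0.0039. With 1 sample left out, the log2 fold change ran from -0.086 to 0.015 for GCN4, -0.099 to 0.059 for ARG2, -0.095 to 0.093 for HIS2, -0.070 to 0.17 for LYS1, -0.082 to 0.032 for LYS4, -0.14 to 0.0092 for LYS12, -0.0018 to 0.18 for LEU9, -0.18 to 0.022 for ILV3, -0.32 to 0.10 for ILV5, -0.040 to 0.037 for TRP5, -0.099 to 0.14 for ARO2, -0.19 to 0.0015 for ASN1, -0.035 to 0.12 for ASN2, and -0.057 to 0.030 for GDH1. The cause of these shifts was not tested. The median of the 46 genes ran from -0.18 to -0.072 and the genes below WT without overlap from 15 to 22 when 1 sample was left out. Shares of all units without overlap were not computed for those fits. HIS6 had the fewest reads, with as few as 23 in a sample.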

Other observations

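The genes that break down arginine were looked at after the values of the arginine synthesis genes had been seen. CAR2, ornithine transaminase, had 18.3, 20.6, and 17.0 CPM in the WT samples and 46.9, 46.6, and 39.7 CPM in the Δset2 samples. All Δset2 samples were above the highest WT sample, and the gene was called higher (log2 fold change 1.25, SE 0.12, adjusted P = 0.00041 from edgeR). CAR1, arginase, had 22.1, 34.9, and 24.1 CPM in WT and 44.0, 45.2, and 47.8 CPM in Δset2, and was also called higher (log2 fold change 0.76, SE 0.16, adjusted P = 0.024 from edgeR). Its highest WT sample was WT 2, and the gene was counted on 595 of its 1153 bases. With each sample left out in turn, the adjusted P of CAR2 reached 0.0058, whereas CAR1 lost its call without WT 1, WT 3, Δset2 1, or Δset2 3, with adjusted P values of up to 0.12 (edgeR). PUT1 and PUT2 convert proline to glutamate downstream of these enzymes. PUT1 had 22.0, 69.8, and 26.3 CPM in WT and 61.0, 47, and 57.7 CPM in Δset2. WT 2 was above all other samples and the other WT samples below all Δset2 samples, so that PUT1 did not pass with all samples (log2 fold change 0.51, SE 0.35, adjusted P = 0.42) and was called higher without WT 2 (1.2, adjusted P = 0.00032, from edgeR). PUT2 had a log2 fold change of 0.01 (SE 0.10). Without WT 2, CAR1 had 0.98 (adjusted P = 0.00029 from edgeR). As background, some arginine synthesis and breakdown genes are known to respond in opposite directions to arginine through Arg80, Arg81, and Mcm1. Arginine itself was not measured, and the cause of the differences given here was not tested.

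YOR302W is the short reading frame in the leader of CPA1, known to encode the arginine attenuator peptide, and it was also looked at after the values were seen. It forms a unit of its own (chromosome XV, 882669 to 882871) that ends at the base before CPA1. It had 11.5, 13.9, and 14.1 CPM in WT and 7.7, 6.8, and 7.4 CPM in Δset2, without overlap (log2 fold change -0.84, SE 0.14, adjusted P = 0.0077 from edgeR). The adjusted P reached 0.070 without Δset2 3 and was also above 0.05 without WT 3. CPA1 itself had -0.76 (SE 0.12). Reads that span both units were dropped by the authors, and the leader unit had between 34 and 215 reads per sample.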
